A study of Mus musculus with 43 samples.

Results

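*Pecam1* and 6 protein-coding genes that lie beside it on mouse chromosome 11, *Tex2*, *Milr1*, *Polg2*, *Ddx5*, *Cep95* and *Smurf2*, were followed through the same 43 single NAcLat→VTA neurons. These 7 genes were taken out of 35825 genes in the tables because *Pecam1*, known as an endothelial gene, had a count in every neuron in earlier results of these data. The question was whether its level moves with that of a neighbouring gene. The neurons lie in the lateral nucleus accumbens (NAcLat), project to the ventral tegmental area (VTA), were labelled by retrobeads injected into the VTA, and gave up their cytosol through a patch pipette. REG cells (23 cells, called NORM in the labels) came from mice on regular chow with 4% fat, and HFD cells (20 cells) came from mice that could choose, over at least 4 weeks, between this chow and one with 60% fat. The study used male and female mice aged 6 to 8 weeks from C57BL/6 J and several Cre, reporter and floxed lines, and the line behind these cells was not given in the sources used here. It counts 10 REG mice and 11 HFD mice but the labels do not tie cells to mice, so each diet was treated as 1 sample and no test between diets was made.

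Each cell was 1 library. Totals ran from 176961 to 16919555 estimated counts, with a median of 1426795. The labels name 2 batches, with 13 REG and 5 HFD cells in batch 1 and 10 REG and 15 HFD cells in batch 2. No 2 cells had identical counts. Markers of medium spiny neurons (6 of 6) and of GABAergic neurons (3 of 3) passed the filter for expressed genes, a CPM (counts scaled to a total of 1000000 in the cell) above 15 in at least 5 cells with a mean above 4. Of all 35825 genes, 10802 passed it. The Poisson interval given below treats reads as independent, which amplified reads are not. It covers counting error at most, and not the spread between cells or mice.

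*Pecam1* encodes CD31, an adhesion receptor of the immunoglobulin superfamily that joins endothelial cells to each other and also sits on platelets and leukocytes. Its cytoplasmic tail carries inhibitory motifs (ITIMs) that recruit the phosphatase SHP-2. Among its neighbours, *Milr1* encodes Allergin-1, an ITIM receptor of mast cells, *Polg2* the accessory subunit of the mitochondrial DNA polymerase, *Ddx5* an RNA helicase, *Cep95* a centrosomal protein, *Smurf2* a ubiquitin ligase that acts on TGF-β signalling, and *Tex2* a lipid-binding protein of the endoplasmic reticulum.

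In GRCm38 the genes stand in the order *Tex2*, *Pecam1*, *Milr1*, *Polg2*, *Ddx5*, *Cep95*, *Smurf2*. *Pecam1* spans chr11:106654217-106750628 on the minus strand. The gap to *Tex2* is 40793 bases and the gap to *Milr1* is 597 bases. *Milr1*, on the plus strand, and *Polg2*, on the minus strand, overlap by 542 bases. The library kit does not mark strand, so reads in that overlap cannot be given to one gene with certainty. *Polg2* and *Ddx5* are 817 bases apart, *Ddx5* and *Cep95* 66 bases, and *Cep95* and *Smurf2* 135 bases.

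*Pecam1* had an estimated count above 0 in 43 of 43 cells (100%), the trait for which it was chosen, so no interval is given for this share. It still had a count in 43 cells after every cell was thinned to 150000 counts. Its counts summed to 23028 (exact Poisson 95% interval 22731 to 23327). The lowest cell had 14.01 CPM, the median was 262 CPM, the highest cell had 4078 CPM and the mean was 552.5 CPM. The mean was thus more than the median because of a few high cells, of which the highest 4 were all in batch 2 and 3 of them were HFD cells.

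Levels of different genes were compared as TPM, which divides by transcript length. *Pecam1* had a median of 213 TPM and stood 391st from the top of the 10802 genes of the filter, above 96.4% of them. *Ddx5*, a broadly expressed helicase, had a median of 208.4 TPM. These top neighbours in the order could not be separated, since *Pecam1* was the higher of the pair in 25 cells and *Ddx5* in 18 cells. *Smurf2* followed with a median of 16.4 TPM and lay below *Ddx5* in 41 of 43 cells. *Polg2* (4.54 TPM), *Tex2* (2.30 TPM), *Milr1* (0.807 TPM) and *Cep95* (0 TPM) were low at the median, and each of these lower steps was crossed in many cells, with *Smurf2* above *Polg2* in 26 cells and *Polg2* above *Tex2* in 24 cells. *Cep95* had a count in 21 cells, and where it was present it could be high, up to 105 CPM.

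**Figure D1:**
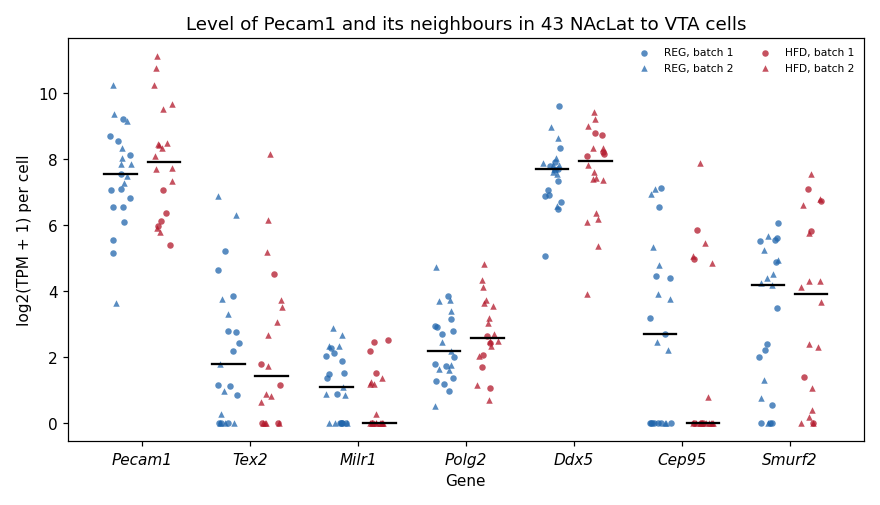
Level of the 7 genes in each of 43 cells, as log2(TPM + 1) on the vertical axis. Points are cells coloured by diet and shaped by batch, and black bars are medians of each diet. *Pecam1* and *Ddx5* sit near each other, with medians of 213 and 208.4 TPM, and both are above 0 in 43 cells, while *Cep95* has a count in 7 of the 20 HFD cells.

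The number of cells with a count differed between the neighbours. *Polg2* and *Ddx5* had one in 43 cells, *Smurf2* in 36 cells, *Tex2* in 31 cells and *Milr1* in 24 cells. At equal depth *Polg2* fell to 27 cells and *Milr1* to 6 cells, whereas *Ddx5* stayed at 43. The counts behind *Polg2* (388 counts in all) and *Milr1* (130.2 counts) were few, and their values per cell rest on single counts in many cells. Of the 7 genes, 6 passed the filter and *Milr1* did not.

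Across the 43 cells *Polg2* was high where *Pecam1* was high, and the other 5 neighbours were not. Spearman's rho between the CPM of *Pecam1* and *Polg2* was 0.81, whereas it was −0.003 for *Smurf2*, −0.05 for *Tex2*, −0.14 for *Cep95*, −0.28 for *Milr1* and −0.36 for *Ddx5*. The median over the 10801 other genes of the filter was −0.15. A rho of 0.5 or more was reached by 1 of the 5 neighbours of the filter, beside 1.98% of all genes, and no neighbour was at −0.5 or below, beside 0.861%. *Polg2* stood 78th from the top. It passed the filter with 5 cells above 15 CPM, the fewest allowed, all in batch 2 and among the 14 cells highest in *Pecam1*. Its place among the filter genes thus rests on cells high in *Pecam1*, so this share and rank are no support for the relation. The values are descriptions over cells that share mice, batches and depth, and none carries a test.

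In the 14 cells lowest in *Pecam1* (14.01 to 163 CPM), *Polg2* had a median of 1.59 CPM and a highest value of 5.65 CPM. The 15 cells between had a *Polg2* median of 4.94 CPM, and the 14 cells highest in *Pecam1* (413 to 4078 CPM) had one of 14.7 CPM, between 2.98 and 42.6 CPM. *Ddx5* went the other way, with medians of 551, 454 and 347 CPM in the same 3 sets of cells. The sets overlapped for every neighbour. Of the lowest 14 cells 3 were in batch 2, against 12 of the 15 between and 10 of the highest 14.

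The relation of *Pecam1* to *Polg2* was present within each batch and diet. The coefficient was 0.65 within batch 1 and 0.88 within batch 2, 0.77 over the REG cells and 0.88 over the HFD cells, and leaving out single cells gave 0.80 to 0.85. That of *Ddx5* was not shared by the batches, at 0.007 in batch 1 and −0.64 in batch 2. Depth moved with these values. The CPM of *Pecam1* had a rho of −0.52 with the total count of the cell and that of *Polg2* had −0.65, while the median gene of the filter had 0.16. Their unscaled counts had a rho with the total of only 0.14 (*Pecam1*) and 0.32 (*Polg2*). Both CPM values thus divide counts that followed depth weakly by the same total. The part of this shared total in the rho of 0.81 was not tested. Between unscaled counts, the rho of *Pecam1* with *Polg2* was 0.66. Thinned to equal depth, where *Polg2* had a count in 27 cells only, it was 0.48. In counts, *Polg2* was small beside *Pecam1*, with a median of 1.59 counts per 100 *Pecam1* counts (0.636 to 9.24).

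**Figure D2:**
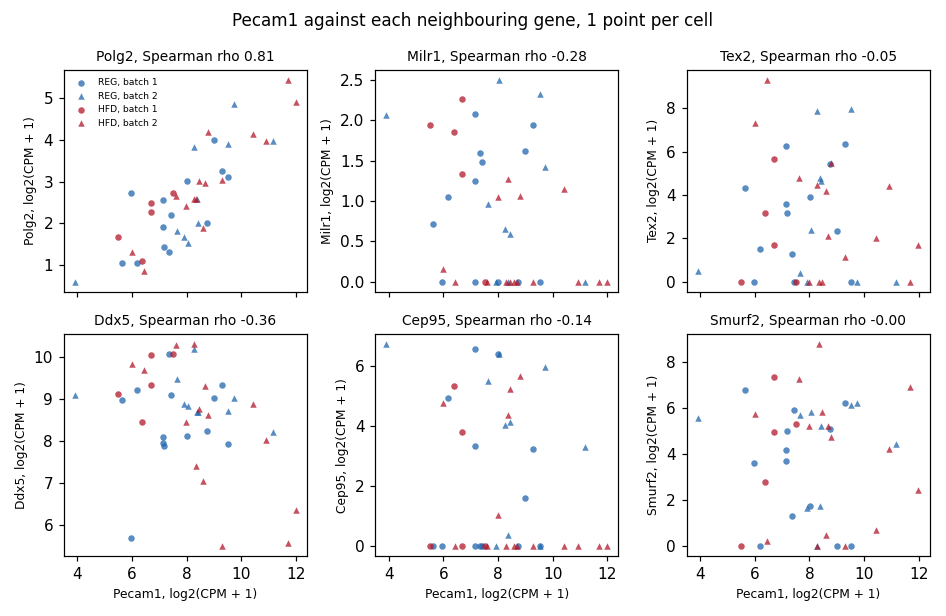
*Pecam1* (horizontal axis) against each of 6 neighbours (vertical axis), both as log2(CPM + 1), with 1 point per cell coloured by diet and shaped by batch. *Polg2* climbs with *Pecam1* (Spearman's rho 0.81), while the other 5 panels show no climb, with rho from −0.36 to −0.003.

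*Milr1*, which starts 598 bases from *Pecam1* and is the nearest gene, showed no such relation. It was too low to settle the point, with at most 4.65 CPM and a count in 6 cells at equal depth. *Tex2*, on the other side, did not share the pattern of *Pecam1*. Between the neighbours themselves the highest rho was 0.39, for *Milr1* and *Cep95*. *Polg2* had 0.02 with *Smurf2*, −0.10 with *Tex2*, −0.15 with *Cep95*, −0.25 with *Milr1* and −0.27 with *Ddx5*. With *Milr1* and *Ddx5*, the genes on either side of it, the rho of *Polg2* was thus below 0.

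Within 500 kb of *Pecam1* the annotation holds 30 other genes of the tables, of which 17 passed the filter. Their median rho with *Pecam1* was −0.15, and *Polg2* was the 1 gene at or above 0.5. As said above, *Polg2* passed the filter only through cells high in *Pecam1*. Over the 836 filter genes of chromosome 11 the median was −0.15 as well, and 11 were at or above 0.5. Among 10758 pairs of filter genes that follow each other along any chromosome the median rho was 0.10, and 107 pairs (0.995%) reached 0.5. *Icam2*, another endothelial adhesion gene in this window, was at 0 in all 43 cells.

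**Figure D3:**
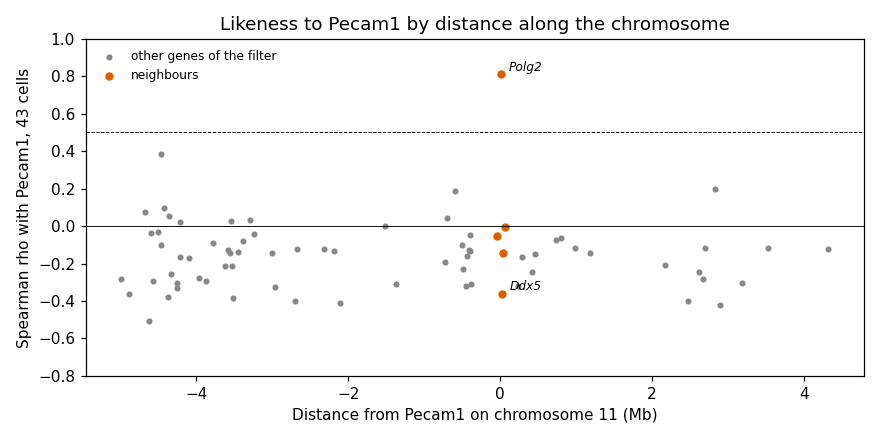
Spearman's rho with *Pecam1* over 43 cells (vertical axis) for filter genes of chromosome 11, by distance from *Pecam1* in Mb (horizontal axis). Orange points are the neighbours and the dashed line marks 0.5. *Polg2*, at 0.81, is the 1 point above the line in this stretch, and genes on either side lie mostly below 0.

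The genes most like *Pecam1* were elsewhere in the genome. The highest rho over the 43 cells was 0.98 for *Frmpd3* (chromosome X), followed by 0.98 for *Bhlhe41*, a circadian transcription repressor (chromosome 6), 0.97 for the pseudogene *Gm47669* (chromosome 10), 0.96 for *Eif2a*, a translation initiation factor (chromosome 3), and 0.96 for the pseudogene *Gm19194* (chromosome 3). Each of these 5 genes had a count in 43 cells. Within batch 1 their rho ran from 0.80 to 0.92 and within batch 2 from 0.97 to 0.99. The most unlike genes were *Noc2l* (−0.66), *Ric8b* (−0.64), *Creld1* (−0.64), *Ndufb5* (−0.63) and *Tfb2m* (−0.62).

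The 2 deposited tables, estimated counts and TPM, were made from the same reads. Their quotient, scaled within each cell, gives a length for the transcripts to which the reads of a gene were assigned. It is given here on the scale of full annotated lengths. For *Pecam1* this length had a median of 2142.03 bases and ran from 2141.997 to 2147.1 bases. It was within 10 bases of the annotated length of 1 transcript, Pecam1-208 (2142 bases), in 43 of 43 cells. The annotation holds 8 transcripts of *Pecam1*, whose other lengths are 681, 1020, 2977, 3006, 3233, 3283 and 3441 bases. If the remaining reads lay on the coding transcript Pecam1-203 (3233 bases), the implied length would leave it a median of 0.0040% of the *Pecam1* counts and at most 0.75%, in cell 23 of the REG group. A mixture of shorter and longer transcripts could give the same mean length only if held in the same proportion in every cell.

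**Figure D4:**
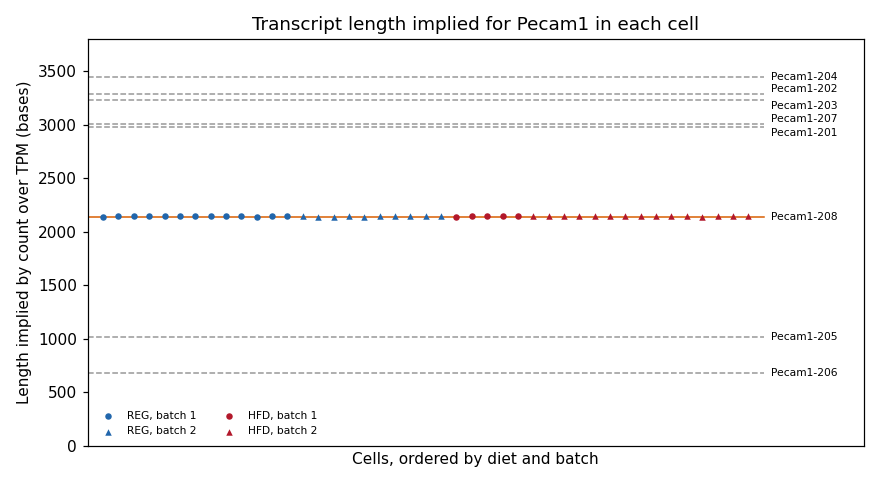
Transcript length implied by count over TPM of *Pecam1* (vertical axis, bases) in each of 43 cells, ordered along the horizontal axis by diet and batch. Horizontal lines mark the lengths of the 8 annotated transcripts, and every point lies on the line of Pecam1-208, between 2141.997 and 2147.1 bases.

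Pecam1-208 is annotated as a retained intron, without a coding sequence. It is a single exon on the minus strand, chr11:106661185-106663326, and lies whole within intron 13 of Pecam1-203. It shares 0 bases with the exons of Pecam1-202 and Pecam1-203, 23 bases with those of Pecam1-204 and Pecam1-207 and 228 bases with those of Pecam1-201. The *Pecam1* level in these tables is therefore a level assigned to intronic sequence, and the counts assigned to spliced coding *Pecam1* were at or near 0.

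The same calculation placed the neighbours differently. *Ddx5* ran from 1250 to 3585 bases with a median of 3456, near the coding Ddx5-201 (3559 bases) and Ddx5-208 (3593 bases), a target of nonsense-mediated decay. *Tex2* ran from 988 to 4934 bases (median 3645), the highest value being the length of the coding Tex2-201. *Smurf2* ran from 875 to 5290 bases (median 2403), from the length of the noncoding Smurf2-205 to that of the coding Smurf2-202. The coding Smurf2-206 (2358 bases) and Smurf2-201 (3125 bases) lie between them, so the median was also near a coding length. *Milr1*, in the 5 cells with at least 5 counts, gave 1348 or 1514 bases, the lengths of its coding transcripts Milr1-201 and Milr1-202. *Polg2* had at least 5 counts in 30 cells. Its implied length ran from 1770 to 2238 bases (median 1783). It was nearest to Polg2-203 (1770 bases) in 22 cells and to Polg2-206 (1983 bases) in 8 cells, both annotated as targets of nonsense-mediated decay. The coding Polg2-201 (1506 bases) was nearest in none of them. A mixture that includes the longer Polg2-204 (2728 bases) could also give values above 1770, so the nearest length does not name the transcript.

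Pecam1-208 and Polg2-203 each hold a long run of a single base. That of Pecam1-208 spans 43 A from base 357 to base 399 of the transcript, in 1 exon and outside any coding sequence, whereas the longest run of A or of T in the coding *Pecam1* transcripts is 6 or 7 bases. That of Polg2-203 spans 25 T at chr11:106778819-106778843, in an exon and annotated as untranslated. The other neighbours have shorter runs, with 22 bases in *Smurf2*, 20 in *Milr1*, 17 in *Tex2*, 13 in *Cep95* and 12 in *Ddx5*. The runs of *Pecam1*, *Polg2* and the 5 genes most like *Pecam1* are shown because all 7 hold one of 25 bases or more. Each is read from the GRCm38 reference transcripts (GENCODE) in the direction of its transcript, 5′ to 3′, with the run in capitals.

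Pecam1-208 (chr11:106662888-106663010, minus strand): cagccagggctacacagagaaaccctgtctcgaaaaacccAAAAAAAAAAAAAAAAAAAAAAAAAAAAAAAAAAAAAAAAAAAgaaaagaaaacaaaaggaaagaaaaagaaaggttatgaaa
Polg2-203 (chr11:106778817-106778845, minus strand): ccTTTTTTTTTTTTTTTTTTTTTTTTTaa
Frmpd3-201 (chrX:140382221-140382249, plus strand): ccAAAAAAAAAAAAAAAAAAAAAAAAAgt
Bhlhe41-201, first 30 of 39 bases of the run (chr6:145862028-145862057, minus strand): TTTTTTTTTTTTTTTTTTTTTTTTTTTTTT
Gm47669-201 (chr10:95703379-95703408, minus strand): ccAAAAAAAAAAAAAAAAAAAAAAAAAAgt
Eif2a-204 (chr3:58543689-58543717, plus strand): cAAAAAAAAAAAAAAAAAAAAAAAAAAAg
Gm19194-201 (chr3:71672631-71672660, plus strand): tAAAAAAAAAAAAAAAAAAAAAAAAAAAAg

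The run is of T in *Polg2* and *Bhlhe41* and of A in the other 5 transcripts. Frmpd3-201 and Eif2a-204 are annotated as retained introns, Gm47669-201 and Gm19194-201 as processed pseudogenes, and Bhlhe41-201 as coding. The 5 genes at the other end of the order had longest runs of 6 to 17 bases.

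Over all genes, likeness to *Pecam1* went with such runs. A run of A or of T of at least 25 bases was present in some transcript of 451 of 10779 filter genes other than *Pecam1* that matched the annotation (4.18%), and their median rho with *Pecam1* was 0.36. Of them 175 (38.8%) were at 0.5 or above. The 10328 genes with shorter runs had a median rho of −0.15, with 38 genes (0.368%) at 0.5 or above. Read from the other side, 175 of the 213 matched genes at or above 0.5 (82.2%) held such a run, as did 33 of the 33 at or above 0.9 and 0 of the 92 at or below −0.5. The length of 25 bases was chosen after these values were seen, and it is the length of the runs of *Polg2* and *Frmpd3*. At 24 bases or more, 187 of the 213 genes held a run. On either side of it, the 528 genes with runs of 20 to 24 bases had a median rho of −0.09 and the 346 genes with runs of 25 to 30 bases had 0.32. High values were not limited to runs of A or of T. Among the 10328 genes, 5 held a run of C or of G of at least 25 bases. Their median rho was 0.58, with 3 at 0.5 or above.

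**Figure D5:**
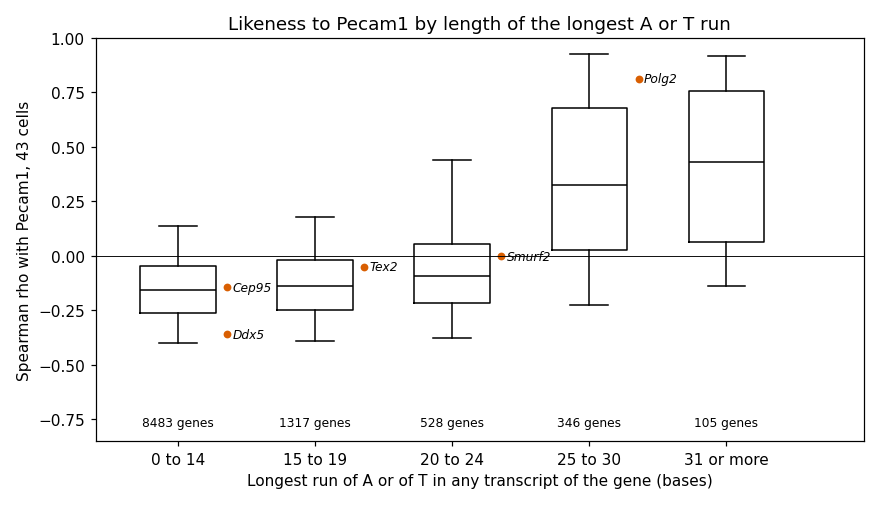
Spearman's rho with *Pecam1* over 43 cells (vertical axis) for filter genes grouped by the longest run of A or of T in any of their transcripts (horizontal axis, bases). Boxes span the quartiles with the median as a line, whiskers reach the 5th and 95th percentiles, and orange points are the neighbours that passed the filter. Medians are −0.16, −0.14 and −0.09 for runs of 0 to 14, 15 to 19 and 20 to 24 bases, and 0.32 and 0.43 for runs of 25 to 30 and of 31 or more.

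The 451 genes together took between 2.45% and 21.6% of the counts of a cell, with a median of 4.47%. The *Pecam1* CPM had a rho of 0.84 with this share over all cells, 0.87 in batch 1 and 0.91 in batch 2. Cells high in *Pecam1* were thus also high in the summed share of these genes, in both batches. Both values are divided by the total of the cell, and the part of this in the rho was not tested. This does not hold for each gene, since 175 of the 451 (38.8%) had a rho of 0.5 or more and the lower quartile was 0.035.

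Reads that match transcripts of several genes are divided among them by kallisto, which leaves fractions in the estimated counts. *Pecam1* had a count more than 0.01 from a whole number in 42 of 43 cells. The median over filter genes was 13.95% of the cells with a count. *Polg2* was not whole in 13 of 43 cells, *Ddx5* in 4 of 43 and *Milr1* in 2 of 24, whereas *Tex2*, *Cep95* and *Smurf2* were whole in every cell with a count. The *Pecam1* counts of nearly every cell therefore included reads shared with another gene.

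Words of 31 bases, the default word length of kallisto, were compared between all reference transcripts. *Pecam1* shared 156 of its 6246 distinct words with 2317 other genes, and every shared word lay on Pecam1-208. The other 7 *Pecam1* transcripts shared 0 words. Counted by position, since a word can stand at several positions, 191 words of Pecam1-208 were shared. Before the run, 110 words were shared with 2077 genes, 52 words touching the run were shared with 262 genes, and 29 words in the last bases of the transcript were shared with 38 genes. The stretch around the run is printed because it carries the word found in the most other genes (717), in capitals. It spans bases 217 to 409 of the transcript, and so holds the run and the bases just after it.

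Pecam1-208 (chr11:106662918-106663110, minus strand): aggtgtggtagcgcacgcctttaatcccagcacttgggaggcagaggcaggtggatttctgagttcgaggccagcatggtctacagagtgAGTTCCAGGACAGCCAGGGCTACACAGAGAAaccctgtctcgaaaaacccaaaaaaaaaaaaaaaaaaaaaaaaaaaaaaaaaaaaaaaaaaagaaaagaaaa

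With the neighbours the overlap was small. Polg2-206 shared 23 of the words before the run (its bases 1629 to 1736) and *Ddx5* shared 1, while no word touching the run was shared with *Polg2*, and *Tex2*, *Milr1*, *Cep95* and *Smurf2* shared 0 words with *Pecam1*. Among filter genes that shared words before the run, the 1088 without a run of 25 bases had a median rho with *Pecam1* of −0.15, with 6 (0.551%) at 0.5 or above, and the 96 with such a run had a median of 0.19, with 27 (28.1%). Among those that shared words touching the run, the 11 without a run of 25 bases had a median of −0.07, with 0 at 0.5 or above, and the 175 with one had a median of 0.41, with 72 (41.1%). Genes that held a run of 25 bases or more but shared no word with *Pecam1* (215 genes) had a median of 0.35, with 83 (38.6%) at 0.5 or above. The share at 0.5 or above was thus higher among genes with a run of 25 bases, with or without a shared word. Most genes with such a run were below 0.5 in each set, and this length was chosen after the values were seen. Whether the run or shared reads lie behind the likeness was not tested. The part of the run in the *Pecam1* level itself was not tested, since reads and their positions were not analysed here.

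Most genes that mark the cells in which *Pecam1* is best known were low. Of 16 endothelial markers 2 passed the filter, *Egfl7* (mean 12.8 CPM) and *Esam* (mean 5.54 CPM), beside 10802 of all 35825 genes. The summed CPM of the 16 markers had a median of 22.97 (0 to 158), between 0 and 147 in REG cells and 0 and 158 in HFD cells. *Cldn5* and *Cdh5*, which define endothelial junctions, had a count in 1 cell each, and *Ly6c1* and *Sox17* were at 0. Others were found in more cells at low levels, with *Flt1* in 27 cells (mean 2.24 CPM), *Erg* in 24 (2.57 CPM), *Vwf* in 23 (2.74 CPM) and *Tie1* in 19 (0.992 CPM). The sum had a rho of −0.25 with *Pecam1*. For platelets 1 of 6 markers passed the filter (*Gp1bb*), for mural cells 1 of 6 (*Tagln*) and for mast cells, where *Milr1* acts, 0 of 6. *Gp1bb* was high in some cells, with a mean of 36.6 CPM, a median of 0.826 CPM and up to 383 CPM. Microglial markers were present in some cells, with 5 of 7 past the filter and a sum of 0 to 1576 CPM (median 66.3), and a rho of −0.10 with *Pecam1*.

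The genes that work with CD31 were read from a list of 12. Of these 6 passed the filter: *Ptpn11*, which encodes SHP-2 (mean 60.7 CPM), the Src-family kinase genes *Fyn* (59.8 CPM) and *Src* (27.1 CPM), *Plcg1* (37.4 CPM), the integrin gene *Itgav* (38.0 CPM) and *Csk* (10.5 CPM). None had a rho of 0.5 or more with *Pecam1*. The median rho of the 6 genes was −0.10, beside −0.15 over all filter genes. Of 13 genes of endothelial junctions 5 passed the filter, with a median rho of −0.26. Over all genes, 10802 of 35825 passed it. Of the 7 other ITIM receptors beside *Pecam1* and *Milr1*, *Sirpa* had the highest mean (88.7 CPM) and a rho of −0.37. The 6 markers of medium spiny neurons, the principal neurons of the nucleus accumbens, had a median rho of −0.45 with *Pecam1*, and their summed CPM had −0.58. *Ppp1r1b*, which encodes DARPP-32, had −0.47. The 3 markers of GABAergic neurons had a median rho of −0.14, near the −0.15 of all filter genes, and their summed CPM had −0.11.

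Between diets *Pecam1* ran from 14.01 CPM (median 257) to 2306 CPM in REG cells and from 44.1 CPM (median 318) to 4078 CPM in HFD cells. The 2 ranges overlapped over most of their length. The means were 395 CPM and 734 CPM, a log2 ratio of HFD over REG of 0.89. The sign was not shared by the batches. In batch 1 the 13 REG cells had a mean of 269 CPM and the 5 HFD cells one of 103 CPM, a ratio of −1.39. In batch 2 the 10 REG cells had a mean of 559 CPM and the 15 HFD cells one of 944 CPM, a ratio of 0.76. Batch 2, which holds 15 of the 20 HFD cells, had the higher mean in both diets. Cell 15 of the HFD group held 27.8% of the CPM of its diet, and without it the ratio was 0.50, while without cell 15 of the REG group it was 1.25.

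A log2 ratio past 1 in either direction was found for 1 of the 6 members of the filter, beside 23.3% of all 10802 genes, whose median ratio was −0.13. At or above 1 there were 0 of 6, beside 9.04% of all genes, and at or below −1 there was 1 of 6, beside 14.3%. The count at or above 1 depended on scaling, with *Pecam1* (1.17) and *Tex2* (1.20) past it under TMM factors, and *Pecam1* (1.14), *Tex2* (1.02) and *Smurf2* (1.21) under DESeq2 size factors. The ratios of all filter genes also rose, by a median of 0.13 under TMM and 0.14 under DESeq2. The share of all genes at or above 1 was not taken under these factors, so 9.04% is no background for them. With CPM, the member at or below −1 was *Cep95* (−1.39), whose mean was 24.5 CPM over REG cells and 9.34 CPM over HFD cells. Its cells ran from 0 CPM (median 8.47) to 105 CPM in REG and from 0 CPM (median 0) to 49.4 CPM in HFD, and the ranges overlapped. Within batches it was −0.72 (batch 1) and −1.92 (batch 2). On TPM it was −0.40, a unit that divides by a transcript length, and the implied length of this gene ran from 371 to 2691 bases between cells.

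*Smurf2* (log2 ratio 0.93) had a mean of 30.998 CPM over REG cells and one of 59.1 CPM over HFD cells. The ratio was 0.81 in each batch, 1.06 on TPM, which is past 1, and 0.33 without cell 13 of the HFD group, which held 37.3% of its diet. *Tex2* had a ratio of 0.52 that was −0.73 in batch 1 and 0.21 in batch 2, and −0.88 without cell 19 of the HFD group, which held 63.9%. *Milr1* (−0.76) was 0.90 in batch 1 and −2.24 in batch 2. *Ddx5* (0.20) was 0.80 and −0.16. Signs thus differed between batches for *Pecam1*, *Tex2*, *Milr1*, *Polg2* and *Ddx5*, and were shared for *Cep95* and *Smurf2*.

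*Polg2* ran from 0.502 CPM (median 3.59) to 28.3 CPM in REG cells and from 0.799 CPM (median 5.13) to 42.6 CPM in HFD cells. Its means were 6.47 and 9.16 CPM and its log2 ratio was 0.50, with −0.49 in batch 1 and 0.37 in batch 2. These are the signs of *Pecam1*, but *Tex2*, whose rho with *Pecam1* was −0.05, had them too, and the number of *Polg2* counts was small (197 in REG cells and 191 in HFD cells).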

How the data were processed

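Cytosol of 43 patched cells was amplified from polyadenylated RNA, tagmented with Nextera XT and sequenced, and the authors pseudo-aligned the reads with kallisto to mouse transcripts of GRCm38. The authors deposited estimated counts per gene, without normalization, and TPM per gene, scaled within each cell; kallisto splits reads that match several transcripts, which can move counts between genes that share sequence. Cells were grouped by the diet and batch in the labels. CPM used the total of each cell. The log2 ratio is that of the mean CPM of the HFD group over the REG group, with no pseudocount. Correlations are Spearman’s coefficient, rho, over cells. A count over TPM, scaled in each cell by genes with a single annotated transcript (58 to 872 genes), gives an implied length, read for cells with at least 5 counts. This formula holds for transcripts much longer than a fragment. Transcripts, coordinates and sequences came from GENCODE M21, 1 release after that of the authors and of the same build. A terminal A run of 10 bases or more was removed before runs were measured. Genes named were the members, the genes within 500 kb of *Pecam1*, the 5 genes highest and the 5 lowest in rho, and the examples of highest mean, or that define a cell type, from 10 lists.

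The members and lists were chosen with earlier results of these data known. No test was made, because mice are not named in the labels and each diet is 1 sample. With totals of 176961 to 16919555 counts, a count of 0 allows up to 3 counts in a cell. Ratio and correlation were tested on simulated data. There, expected counts rose in proportion to the total of the cell and no batch was set. The simulation thus does not cover genes whose CPM falls with depth, as that of *Pecam1* and *Polg2* did. Alternatives covered TPM, TMM factors (edgeR 4.0.16), size factors (DESeq2 1.42.0), totals that leave out the most abundant genes (*Lars2* and *Gm19220*), other summaries, thinning to 150000 counts, other filters, each batch or diet alone and each cell left out. The scripts ran in R 4.3.3 and Python 3.11.15 with scipy 1.17.1, pandas 2.3.3, matplotlib 3.10.9 and numpy 2.4.6.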

Additional observations from a re-analysis of the deposited data

How the results depend on the processing

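No paired analysis was possible because no label links a REG cell to an HFD cell. Comparing counts without scaling was chosen after seeing the data, and the cause was not tested for any value that moved. *Polg2* had the highest rho with *Pecam1* of the 6 neighbours in all 56 settings run, 13 of scaling or of subsets and 43 that leave out 1 cell. Against 0.81, this rho was 0.85 with TMM totals, 0.48 thinned, 0.65 in batch 1, 0.88 in batch 2, 0.77 in REG cells, 0.88 in HFD cells and 0.66 without scaling, and 0.80 to 0.85 with any 1 cell left out. The median rho over the neighbours, −0.10, was −0.15 and −0.17 as Pearson's r of log2(CPM + 1) and log2(CPM + 10), 0.0059 in batch 1, −0.20 in batch 2, 0.028 in REG cells, −0.24 in HFD cells, 0.060 without scaling and −0.15 to −0.063 with 1 cell left out.

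The mean level of *Pecam1*, 552.5 CPM, was 370 on TPM, 920 with totals without *Lars2* and *Gm19220*, 616 with TMM, 614 with DESeq2 factors, 242 from summed counts, 262 as the median, 223 in batch 1, 790.1 in batch 2, 395 in REG cells, 734 in HFD cells and 469 (without cell 15 of the HFD group) to 565 with 1 cell left out. Its log2 ratio, 0.89, was −1.39 in batch 1, 0.76 in batch 2, 0.77 on TPM, 1.01 without *Lars2* and *Gm19220*, 1.17 with TMM, 1.14 with DESeq2 factors, 0.69 from summed counts, 0.31 between medians, 0.42 as the difference of mean log2(CPM + 1) and 0.50 to 1.25 with 1 cell left out. Over all filter genes the median ratio shifted by 0.13 under TMM and by 0.14 under DESeq2. Genes past a ratio of 1 numbered 7524 without a filter and 1486 with a filter at 10 cells, against 2518. The share of cells with *Pecam1*, its implied length and the number of genes past a rho of 0.5 (307 in both directions, 276 to 352) moved by less than the limits set.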
